A study of Mus musculus with 8 samples.

Results

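The genes described here are 10 chemokines and cytokines that myoblasts can secrete: the CC chemokines Ccl2 and Ccl7, the CXC chemokines Cxcl1, Cxcl5, Cxcl10 and Cxcl12, and the cytokines Il6, Il15, Lif and Csf1. They were taken by name from a table of 27179 gene rows and from 4 lists of N6-methyladenosine (m6A) peaks, and all 10 were in the table. The cells were C2C12, an immortalized mouse myoblast line that fuses into myotubes when serum is lowered. In growth medium (GM), they were kept in high-glucose DMEM with 10% fetal bovine serum and collected at 50% confluence. In 3d DM, cultures past 90% confluence had spent 3 days in high-glucose DMEM with 2% horse serum. Each state had 2 replicates, and each replicate gave an input RNA library and a library immunoprecipitated with an m6A antibody (MeRIP-seq). Both states grew on collagen-coated dishes, and no gene was altered in either. Since no label says that replicates came from separate cultures, p-values measure the spread between these libraries, pooled over genes, which may be technical.

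Chemokines are small secreted proteins that draw leukocytes along a gradient by binding receptors with 7 membrane helices. In injured muscle, CC chemokines recruit monocytes and CXC chemokines of the Cxcl1 and Cxcl5 type recruit neutrophils. Lif and Il6 signal through the shared receptor chain gp130 (Il6st) to the JAK-STAT pathway, Il15 through a receptor that shares the common gamma chain with Il2, and Csf1 keeps macrophages alive through Csf1r. Many mRNAs of this kind are short-lived and carry AU-rich elements in their 3′ UTR, and m6A is one of the marks that act on mRNA stability.

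The identity of the cells was read from fixed marker genes. All 6 myotube markers were higher in 3d DM, with a median log2 fold change of -5.42, and 4 of 6 myoblast and cell-cycle markers were higher in GM. The remaining pair were Des, a muscle filament gene that was lower in GM (log2 fold change -1.36, limma adjusted p = 0.0061), and Myod1, which was not called. Myog, the factor that starts terminal differentiation, was at 1008 in the first GM replicate and at 221 in the second, against 5392 and 11502 in 3d DM, so GM replicate 1 held more myotube transcript than GM replicate 2. Of 8 macrophage and leukocyte markers, the pan-leukocyte gene Ptprc was listed at 0 in 3 libraries and at 2.21 in 3d DM replicate 1, and the macrophage gene Adgre1 was at 0 throughout. Itgam, an integrin of myeloid cells, was at 0 in both GM libraries and at 7.67 and 9.56 in 3d DM, below the filter (with no filter, limma adjusted p = 0.000222). The summed values of those 8 markers were 130 and 74.3 in the GM libraries against 77.4 and 60.2 in those of 3d DM, carried mainly by Cd14 and Cd68. The states overlapped in these sums, while Itgam was higher in both 3d DM libraries. The part of such cells in the results was not tested. Endothelial markers summed to at most 16.6 and adipocyte markers to at most 0.75 in any library. Bulk libraries cannot tell fewer cells with a transcript from less transcript per cell.

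Input RNA values were deposited per gene after an adjustment that brought every column to nearly the same total, between 12534657 and 12536233. They are neither counts nor per length, so levels are compared between genes only after division by exon length. In GM replicate 2, 99.8% of 10068 values between 0.5 and 300 lay within 0.05 of a whole multiple of 1.0035, against 16.4% to 39.9% in the other libraries. Values there can be read as whole reads, 164 for Ccl2 (exact 95% Poisson interval 140 to 191, counting error only), 23 for Cxcl1 (14.6 to 34.5), 2 for Il15 (0.242 to 7.22) and 1 each for Cxcl10 and Il6 (0.0253 to 5.57). Values of a few units thus rest on a few reads. Changes are limma log2 fold changes of value + 1, GM minus 3d DM, with Benjamini-Hochberg adjustment over the 11406 genes whose value was 25.1 or more, or 2 cpm, in 2 or more of the 4 libraries. Of these genes, 9.96% were called higher in GM (1136 genes) and 7.01% lower in GM (800 genes) at an adjusted p of 0.05. Rescaling each library by the median of ratios shifted GM against 3d DM by 0.23 on the log2 scale and changed the split to 1275 and 1369.

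**Figure D1:**
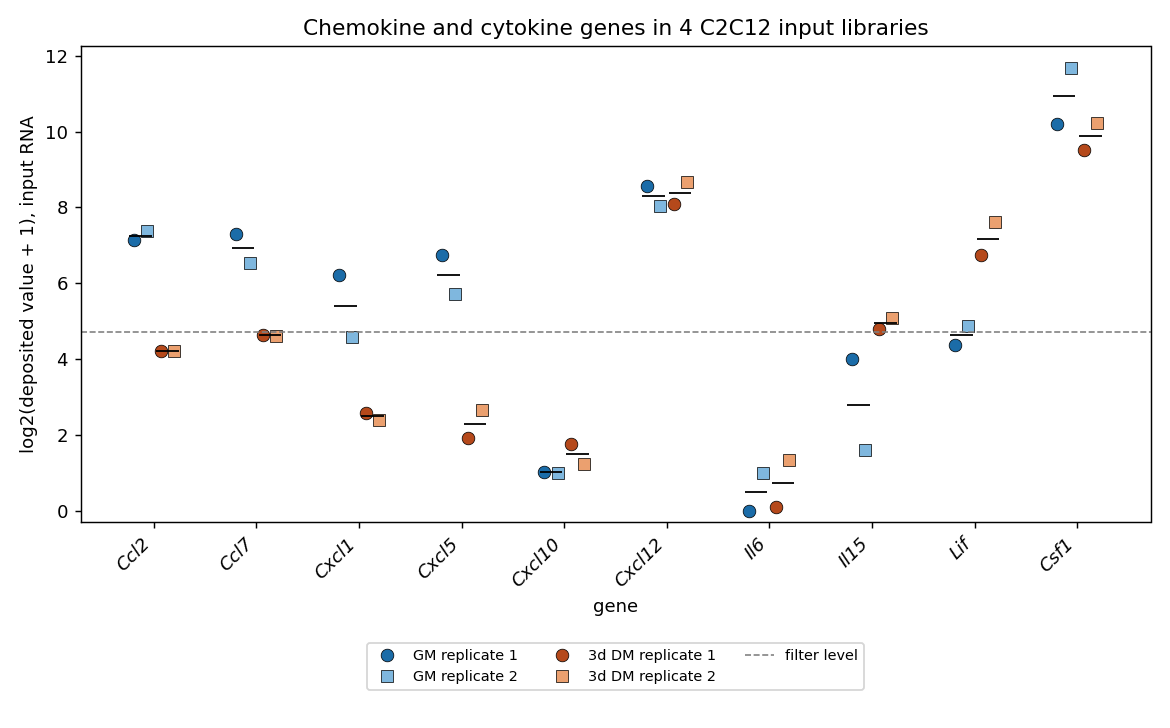
Level of the 10 chemokine and cytokine genes in the 4 input libraries, as log2 of the deposited value plus 1. Points are single libraries, short black lines are the means of both replicates, and the dashed line is the value that the expression filter used. Ccl2, Ccl7, Cxcl1 and Cxcl5 lie higher in both GM libraries, Il15 and Lif in both 3d DM libraries, and Cxcl10 and Il6 near 0.

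Of the 10 genes, 7 were tested. Ccl2, Ccl7 and Cxcl5 were called higher in GM, Lif and Il15 were called higher after differentiation, and Csf1 and Cxcl12 were not called. Both GM libraries lay above both 3d DM libraries for 3 of the 7, as for 37% of all tested genes, and the reverse held for 2 of the 7, as for 16.8% of all tested genes. Ccl2, Ccl7, Cxcl5 and Il15 passed the expression filter through 1 state alone, so a difference between states was built into their passing. Cxcl1, Cxcl10 and Il6 were too low to be tested. The median log2 fold change of the 7 was 1.06, beside 0.22 for all tested genes.

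The CC chemokines were among the clearest. Ccl2 (Entrez 20296, chr11:82035577-82037452 in GRCm38, the genome release behind mm10), the main attractant of Ccr2-positive monocytes, was at 140 and 165 in GM and at 17.6 and 17.5 in 3d DM. The replicates of each state were close and the states did not overlap. The fitted difference was a log2 fold change of 3.04 ± 0.57 (SE, limma adjusted p = 1.74e-06, n = 2 per state), an 8.22-fold higher level in GM. Ccl7 (Entrez 20306, chr11:82045712-82047525), which binds several CC receptors, was at 156 and 92.3 in GM and at 23.9 and 23.4 in 3d DM. Its log2 fold change was 2.29 ± 0.56 (limma adjusted p = 0.000585). The GM replicates of Ccl7 differed from each other more than those of Ccl2, while the 3d DM replicates of both nearly coincided.

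Ccl2 and Ccl7 are neighbours on chromosome 11, with 8.26 kb between them. The other genes of that CC cluster that were read here, Ccl11, Ccl12 and Ccl8, had lower values. Ccl11 was at 7.45, 2.01, 2.68 and 4.46 in GM replicates 1 and 2 and 3d DM replicates 1 and 2, Ccl12 was listed at 0 in all, and Ccl8 was at 22.4 in GM replicate 1 and between 1.02 and 3.68 in the others. Per kb of exon, Ccl8 in GM replicate 1 (43.9) was above Cxcl1 in that library (38.9), and in GM replicate 2 it was at 2.00.

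Cxcl5 (Entrez 20311, chr5:90759298-90761625), a neutrophil attractant that acts through Cxcr2, had the largest change of the tested genes in the set. It was at 106 and 51.2 in GM and at 2.74 and 5.24 in 3d DM, so both 3d DM values rest on few reads. The log2 fold change was 3.95 ± 0.69 (limma adjusted p = 2.27e-07), and Cxcl5 ranked 27 from the top among all 11406 tested genes. It passed the filter through GM alone, the state where it is high. Cxcl1 (Entrez 14825, chr5:90891245-90893121), which uses the same receptor, was at 72.9 and 23.1 in GM and at 4.94 and 4.29 in 3d DM. It reached the filter level in GM replicate 1 alone and therefore had no main test. With no filter (17917 genes), limma gave it a log2 fold change of 2.91 ± 0.72 with an adjusted p of 0.000815. Cxcl1, like Cxcl5, thus lay higher in both GM libraries than in both 3d DM libraries, with a GM replicate 2 value of 23 reads. The order of the 3d DM replicates differed between these genes.

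Both genes lie in the CXC cluster of chromosome 5, 130 kb apart. Between and beside them, Pf4, Cxcl3 and Cxcl15 were listed at 0 in all 4 libraries, Ppbp was at 7.45, 2.01, 1.13 and 0, and Cxcl2, the closest relative of Cxcl1, was at 0, 2.00, 0.112 and 2.32. As in the CC cluster, the neighbours read here had lower values in both GM libraries than the members of the set.

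Cxcl10 (Entrez 15945, chr5:92346638-92348889), an interferon-induced ligand of Cxcr3, was at 1.04 and 1.00 in GM and at 2.40 and 1.35 in 3d DM. These values are about 1 to 3 reads, and no difference was detectable at this depth. Of 22 interferon-induced genes, 7 passed the filter and limma called 0 in either direction (0 at an unadjusted p of 0.05), with a median log2 fold change of -0.03.

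Cxcl12 (Entrez 20315, chr6:117168535-117181368), the ligand of Cxcr4 and a guide of migrating muscle precursors, was high in both states. It was at 381 and 262 in GM and at 273 and 406 in 3d DM. The ranges overlapped, and the log2 fold change was -0.08 ± 0.46 (limma adjusted p = 0.949). The estimate changed sign when GM replicate 2 (0.19) or 3d DM replicate 2 (0.21) was left out.

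Among the gp130 cytokines, Lif (Entrez 16878, chr11:4257568-4272514), which supports myoblast proliferation and motor neurons, went the opposite way to the neutrophil and monocyte attractants. It was at 19.8 and 28.1 in GM and at 106 and 195 in 3d DM, a log2 fold change of -2.55 ± 0.56 (limma adjusted p = 6.62e-05). Both 3d DM libraries lay well above both GM libraries, and Lif passed the filter in 3 of the 4. Il6 (Entrez 16193, chr5:30013114-30019975), the best-known cytokine released by contracting muscle, was at 0 and 1.00 in GM and at 0.0763 and 1.54 in 3d DM. With about 1 read, a level of Il6 could not be set in either state.

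Il15 (Entrez 16168, chr8:82331624-82403252), known as a muscle-derived growth factor for natural killer and T cells, was at 14.9 and 2.02 in GM and at 26.8 and 33.2 in 3d DM. The states did not overlap, but the GM replicates lay far apart, and the GM replicate 2 value is 2 reads. Its log2 fold change was -2.15 ± 0.72 (limma adjusted p = 0.0212). The call was lost under both rescalings, by the median of ratios (-2.37, adjusted p = 0.0839) and by the trimmed mean (-2.36, adjusted p = 0.0859). Without GM replicate 2, the log2 fold change fell to -0.95 (adjusted p = 0.693).

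Csf1 (Entrez 12977, chr3:107741048-107760469), the macrophage growth factor M-CSF, was the most abundant member in every library. It was at 1169 and 3279 in GM and at 736 and 1205 in 3d DM. GM replicate 1 lay below 3d DM replicate 2, so the states overlapped, and the log2 fold change was 1.06 ± 0.42 (limma adjusted p = 0.067). Without GM replicate 2 it was 0.31 (adjusted p = 0.952), and without GM replicate 1 it was 1.80 (adjusted p = 0.064).

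The standard errors of the main fit came from a variance trend over all genes with infinite prior degrees of freedom. They follow a gene's level and not the spread of its own replicates. When 3d DM replicate 1 was left out, the 5 genes called from all libraries were no longer called, as were most called genes in the whole table. Their log2 fold changes kept their sign, at 3.04 (Ccl2), 2.31 (Ccl7), 3.58 (Cxcl5), -2.30 (Il15) and -2.99 (Lif). Without 3d DM replicate 2, Ccl7 (adjusted p = 0.0806), Lif (0.0947) and Il15 (0.306) were no longer called.

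**Figure D2:**
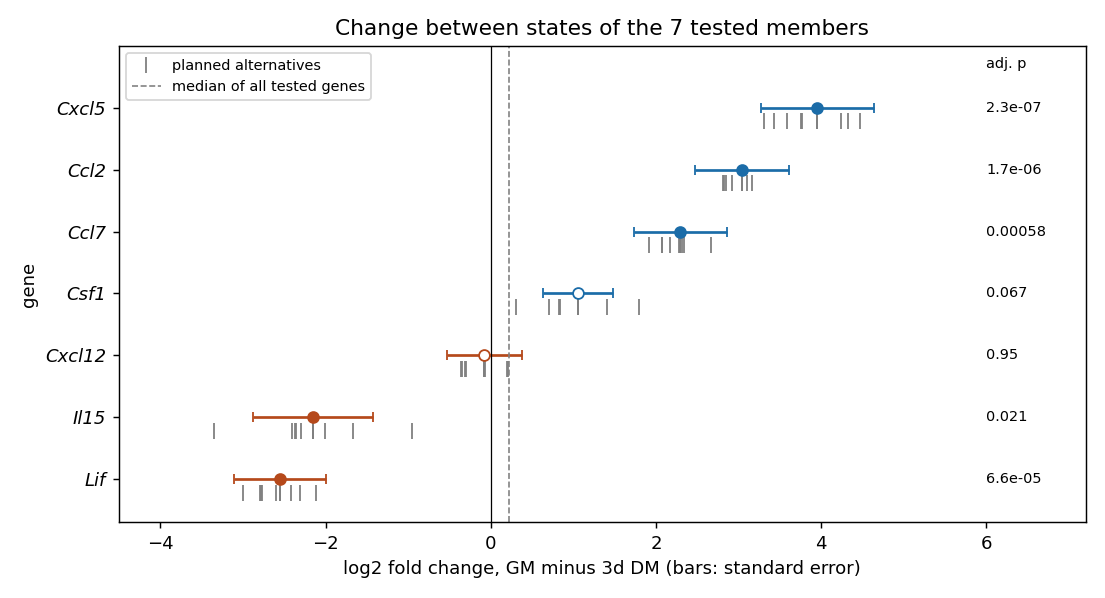
Log2 fold change, GM minus 3d DM, of the 7 tested genes with its standard error and, at the right, the limma adjusted p. Filled points passed an adjusted p of 0.05 and open points did not, grey ticks are the same fold change under the alternative settings, and the dashed line is the median of all tested genes at 0.22. Cxcl5, Ccl2 and Ccl7 stay right of that line and Lif and Il15 left of it in every setting run, while the ticks of Cxcl12 fall on both sides of 0.

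Per kilobase of annotated exon (all isoforms joined), Csf1 led in both states, with means of 421 in GM and 184 in 3d DM. In GM, Ccl7 (155 per kb) and Ccl2 (134 per kb) followed, and their replicate ranges overlapped. Cxcl5 (42.3), Cxcl12 (39.3) and Cxcl1 (25.6) came next per kb with overlapping ranges, then Lif (5.51) and Il15 (3.75), which overlapped as well. In 3d DM, Cxcl12 (41.5 per kb), Lif (34.6) and Ccl7 (29.5) came after Csf1, ahead of Ccl2 (15.4) and Il15 (13.3). The range of Lif overlapped those of Cxcl12 and Ccl7, which did not overlap each other. Cxcl1 (2.46 per kb) and Cxcl5 (2.14) fell to the level of a few reads in 3d DM. Cxcl10 and Il6 were last in both states, below 1 per kb.

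Receptor genes of the 10 ligands were read in the same libraries. Of 18 receptor genes, 6 were tested, limma called 2 higher in GM, and 0 were higher in 3d DM (also 0 at an unadjusted p of 0.05). Ccr2, Cxcr2 and Cxcr3, the receptors of Ccl2 and Ccl7, of Cxcl1 and Cxcl5, and of Cxcl10, were listed at 0 in all 4 libraries, and Csf1r did not exceed 2.00. Both Cxcl12 receptors were present. Ackr3, which takes up Cxcl12, was at 1023 and 680 in GM and at 184 and 335 in 3d DM, a log2 fold change of 1.75 ± 0.45 (limma adjusted p = 0.00106). Cxcr4, which signals, was at 392 and 122 in GM and at 222 and 397 in 3d DM, with a log2 fold change of -0.44 ± 0.46 (limma adjusted p = 0.63) and overlapping states.

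For the gp130 cytokines, Il6st was at 939 and 647 in GM and at 1006 and 1432 in 3d DM (log2 fold change -0.62, limma adjusted p = 0.387), and it was called higher in 3d DM under median-of-ratios rescaling (-0.85, adjusted p = 0.0228). Lifr was at 516 and 361 in GM and at 540 and 503 in 3d DM (log2 fold change -0.27, limma adjusted p = 0.789). Il6ra, the specific chain of the Il6 receptor, was at 73.6 and 65.2 in GM and at 17.3 and 36.7 in 3d DM (log2 fold change 1.42, limma adjusted p = 0.0792). Both chains of the Lif receptor were therefore well above the filter in GM and 3d DM. Of the Il15 receptor chains, Il15ra lay between 2.01 and 3.16 in all libraries. Il2rg, the common gamma chain, was at 97.0 and 36.2 in GM and at 12.4 and 10.8 in 3d DM, a log2 fold change of 2.26 ± 0.64 (limma adjusted p = 0.00378). Il2rb, the chain that Il15 and Il2 also share, had the reverse order, at 2.11 and 1.01 in GM and at 20.7 and 31.9 in 3d DM. Il2rb reached the filter level in 3d DM replicate 2 alone and had no main test. With no filter its log2 fold change was -3.42 (limma adjusted p = 9.94e-05). Il2rg passed the filter through GM alone, the state where it is high, so a difference was built into its passing.

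**Figure D3:**
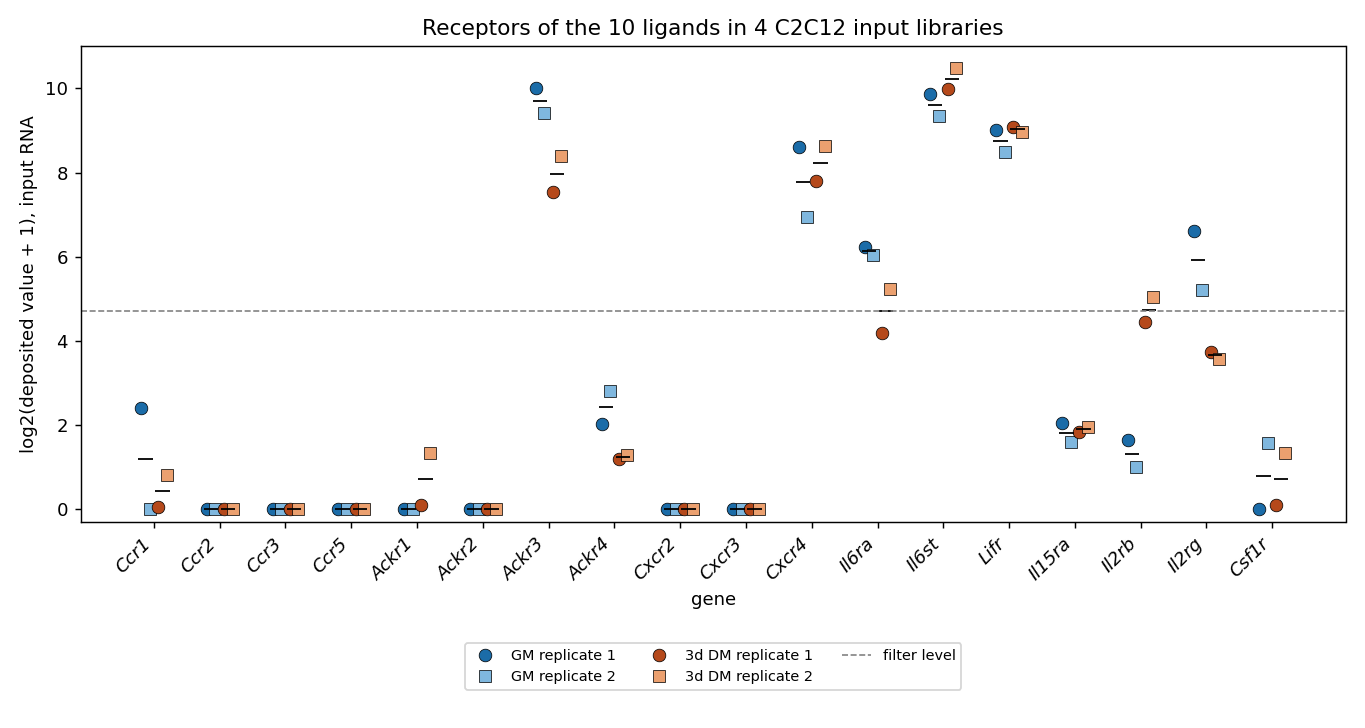
Level of 18 receptor genes in the 4 input libraries, as log2 of the deposited value plus 1, with single libraries as points, replicate means as short lines and the filter level dashed. Ackr3, Cxcr4, Il6st and Lifr lie well above the filter in all libraries, and Ccr2, Cxcr2 and Cxcr3 are at 0.

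Other ligand genes give the setting of the 10. Of 29 other chemokine genes, 1 was tested, Cx3cl1, with a log2 fold change of 0.13 (limma adjusted p = 0.916), and 13 were listed at 0 in every library. Of 40 other cytokine genes, 10 were tested, 3 were higher in GM, and 1 was lower. The shares over all tested genes were 9.96% higher in GM and 7.01% lower. Il33, an alarmin held in the nucleus, was at 428 and 107 in GM and at 32.2 and 47.4 in 3d DM, a log2 fold change of 2.43 (limma adjusted p = 4.78e-05). Kitl, the stem cell factor, had a log2 fold change of 1.71 (limma adjusted p = 0.00282), and Mif, an abundant macrophage inhibitory factor, one of 1.60 (limma adjusted p = 0.00123). Il1b, an inducer of many of these chemokines in other cells, was at 0 and 3.00 in GM and at 30.1 and 60.4 in 3d DM, with a log2 fold change of -4.45 (limma adjusted p = 5.52e-07). Il1b passed the filter through 3d DM alone, and its fold change depended on the pseudocount, from -3.15 at 4 to -6.26 at 0.1.

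NF-kB factors drive transcription of several of the genes in many cell types. Over all tested genes, limma called 9.96% higher in GM and 7.01% lower. Of 22 NF-kB pathway genes, 21 were tested, and their median log2 fold change was -0.11. In this list, limma called 0 higher in GM (also 0 at an unadjusted p of 0.05) and 1 lower. Under either rescaling, 3 were called higher in 3d DM, Relb, Map3k14 and Tnip1. Relb, the gene called without rescaling, is a partner in the non-canonical branch and was at 47.3 and 42.1 in GM and at 127 and 174 in 3d DM (log2 fold change -1.71, limma adjusted p = 0.00979). In the gp130 and JAK-STAT list, 19 of 23 were tested, with 1 called in each direction, and under either rescaling 4 were called higher in 3d DM and 0 higher in GM. Stat3, the main transducer of gp130, was higher in 3d DM (log2 fold change -1.30, limma adjusted p = 0.0172), and Socs1, a feedback inhibitor of JAK kinases, was higher in GM (log2 fold change 2.77, limma adjusted p = 0.000463), a call lost under median-of-ratios rescaling (adjusted p = 0.0563). Socs1 passed the filter through GM alone, and was not tested with the filter at 3 libraries. The call of Stat3 was lost with the replicate number as a block (adjusted p = 0.132).

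The RefSeq promoter table (GRCm38.p6, 250 bases before to 50 after the start) held 6 of the 10 genes. Ccl2, Ccl7, Cxcl5 and Il15 were not in it and were not searched. The 6 promoters were searched on both strands for the 10-letter NF-kB consensus, which 4.51% of 32851 promoters hold. It was found in 4 of the 6, and the windows are shown with the match in capitals to let the sites be compared. Csf1 has 1 match 154 bases before its start, Il6 1 match 44 before, Cxcl10 matches 159 and 103 before, and Cxcl1 a pair of overlapping matches 71 and 70 before, of which the first is shown.
Csf1 (chr3:107760606-107760631, minus strand): gccttgagGGAAAGTCCCtaggggcc
Il6 (chr5:30013062-30013087, plus strand): tcaaatgtGGGATTTTCCcatgagtc
Cxcl1 (chr5:90891166-90891191, plus strand): tgtactccGGGAATTTCCctggcccg
Cxcl10, distal (chr5:92349031-92349056, minus strand): aggggagaGGGAAATTCCaagttcat
Cxcl10, proximal (chr5:92348975-92349000, minus strand): gtttacagGGGACTTCCCtcgggttg
Cxcl12 and Lif had no match in this window. The 4 genes with a match ranged in level from about 1 read (Il6, Cxcl10) to the most abundant member (Csf1). The part of these sites in the levels was not tested.

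MeRIP-seq peaks were listed on 4 of the 10 genes, all 4 of them among the 7 tested. Of tested coding genes, 78.7% had a peak in at least 1 list and 44.1% in all 4, and among the 7 members 1 had a peak in all 4. That gene was Csf1. Lif was listed in 3 lists, Ccl7 in GM replicate 2 alone and Cxcl12 in GM replicate 1 alone. Ccl2, Cxcl1, Cxcl5, Cxcl10, Il6 and Il15 had no peak in any list. Listing moved with level over all tested coding genes: 6.3% of those with a mean value below 50 had a peak in all 4 lists, 16.7% of those from 50 to 100, 48.6% of those from 200 to 500 and 69.8% of those from 1000 to 2000. A peak in at least 1 list was more common, at 48.1% below 50 and 63.2% from 50 to 100. It reached 84.2% from 200 to 500 and 90.7% from 1000 to 2000. Cxcl5 and Il15 fell in the class below 50. Ccl2, Ccl7 and Lif fell in the class from 50 to 100, Cxcl12 in that from 200 to 500 and Csf1 in that from 1000 to 2000. The part of level in the missing peaks was not tested.

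The peak sequences are shown because they carry the motif in which m6A is placed, DRACH (A, G or T, then A or G, then A, C, and A, C or T). In each peak, the GGACT nearest the centre of the bases that its lists share is given, or, where there is none, the nearest other DRACH, with the motif in capitals and the GRCm38 position of the window.
Csf1, coding sequence (chr3:107748877-107748897, minus strand): ctcactgaGGACTcacaacct
Csf1, 3′ UTR (chr3:107742804-107742824, minus strand): ctggcaagGGACTcactagcc
Lif, after the stop codon (chr11:4269350-4269370, plus strand): tgtaccatGGACTgagggacc
Cxcl12, 3′ UTR (chr6:117179145-117179165, plus strand): ctgaaaaaGGACTctcgagat
Ccl7, end of the coding sequence (chr11:82047052-82047072, plus strand): gcatacttAGACAtgaaaacc
GGACT was held by 35.9% of windows of the first shared stretch's length (419 nt) tiled over the longest coding transcripts of tested genes, by 55.8% at 776 nt (Csf1 3′ UTR), by 14.6% at 150 nt (Lif) and by 17.3% at 180 nt (Cxcl12), and AGACA by 32.6% at 267 nt (Ccl7). The peaks of Csf1 held 74 DRACH motifs, 28.2 per kb against 21.9 per kb in the rest of the transcript, and 20.2 per kb over the longest coding transcripts of tested genes. Lif peaks held 8 (22.2 per kb against 18.3 outside). The third Csf1 and the distal Lif positions are not shown. A motif match marks no modified base.

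Csf1 carried 3 peak positions. The first lay inside the coding sequence, 364 to 1169 nt before its end at the widest, with GM fold enrichments over input of 3.61 and 5.81 against 3.46 and 4.10 after differentiation. The mean log2 fold enrichment was 0.28 higher in GM, and the groups overlapped (two-sided exact permutation p = 0.667, n = 2 per state). The second began near the stop codon and covered at least 776 nt in every list, from as early as 155 nt before the end of the coding sequence in GM replicate 2 to 1216 nt after it in GM replicate 1. Its fold enrichments were the highest on the gene, 8.01 and 8.24 in GM against 6.72 and 6.02 after differentiation. Both GM values exceeded both 3d DM values, a log2 difference of 0.35 with an exact permutation p of 0.333, the smallest that 2 against 2 allows. The peak caller's own p at this position was 1e-158 and 2.51e-52 for the GM libraries against 2.00e-62 and 1.58e-17 for the differentiated ones. The third, at the distal end of the 3′ UTR, had a fold of 1.96 in the first GM list, none in the second, and folds of 1.79 and 3.51 in the 3d DM lists. The Csf1 mRNA thus had the same 2 main peaks in both states, while its input level overlapped between them.

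Lif had a peak across its stop codon (chr11:4269294-4269503) in both 3d DM lists, with fold enrichments of 6.17 and 11.7, and in no GM list. Its input value was 19.8 and 28.1 in GM, the state without the peak. A second position in the distal 3′ UTR (chr11:4271916-4272067) joined a 60 nt peak of GM replicate 2 (fold 11) and a 91 nt peak of 3d DM replicate 1 (fold 2.65) that met at their ends. Cxcl12 had 1 peak 2944 nt into its 5188 nt 3′ UTR, with a fold enrichment of 4.08, in GM replicate 1. Ccl7 had 1 peak with a fold enrichment of 2.97 over the end of its coding sequence in GM replicate 2. Neither recurred in the other replicate of GM.

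**Figure D4:**
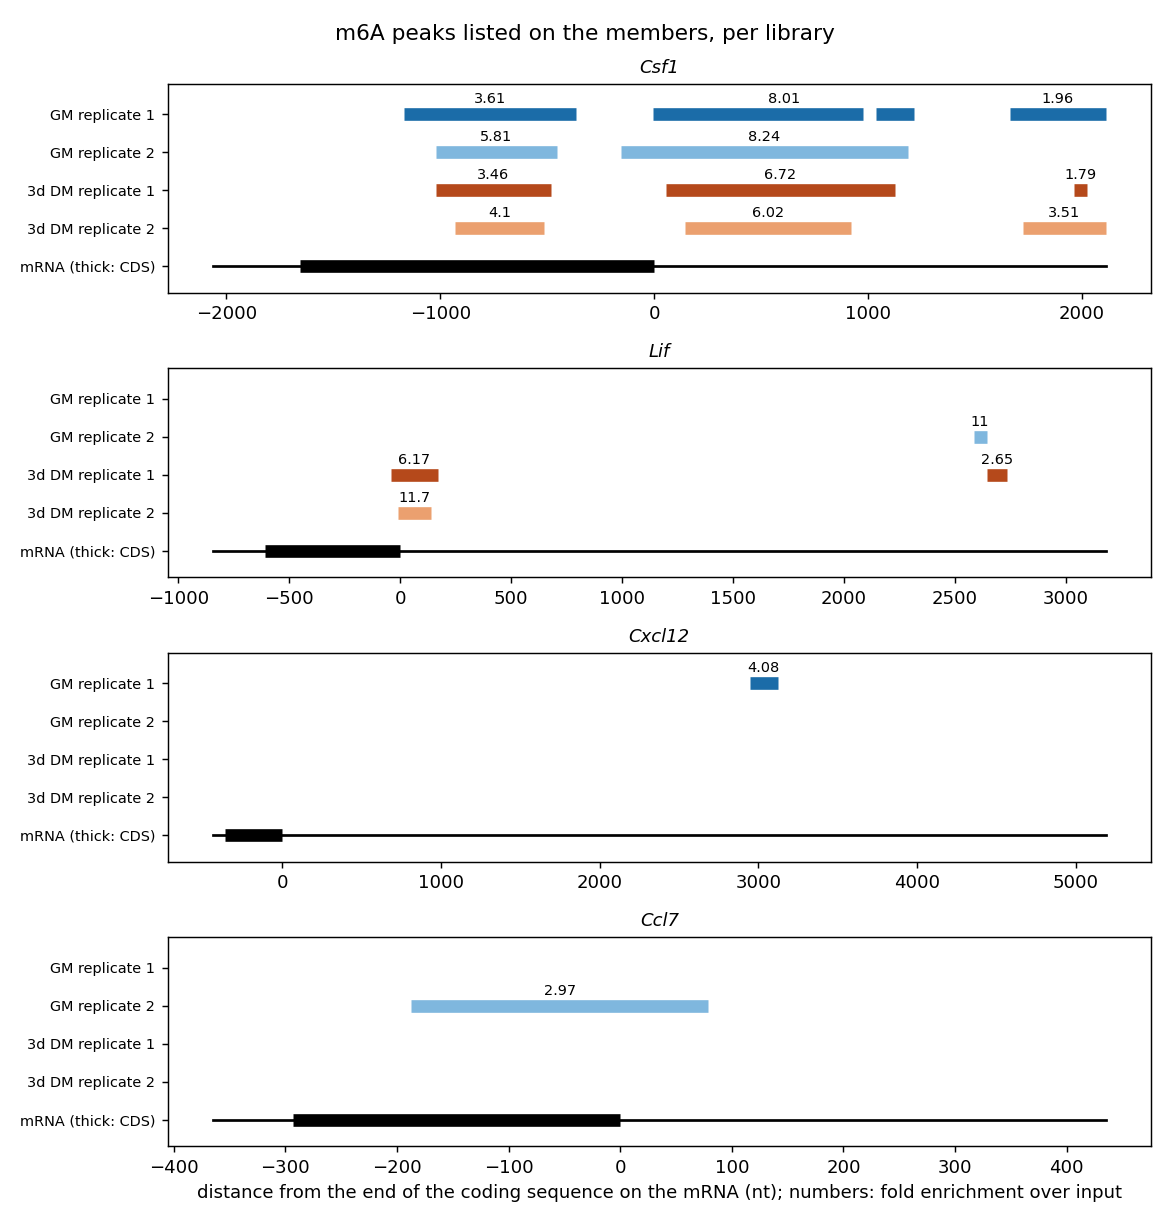
Peaks of Csf1, Lif, Cxcl12 and Ccl7 in each of the 4 lists, drawn to scale along the longest listed coding transcript by distance in nt from the end of the coding sequence. The thick black bar is the coding sequence, coloured bars are peaks, and the number above each is its fold enrichment over input. Csf1 shows the same coding and 3′ UTR peaks in all 4 lists, and Lif the peak at the stop codon in both 3d DM lists.

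AU-rich elements were counted in the longest 3′ UTR of each coding gene (GENCODE M21). The pentamer ATTTA occurred 7 times in Cxcl1, 10 in Il6, 7 in Lif, 5 in Cxcl5, 4 each in Csf1 and Cxcl12, 3 in Cxcl10, 2 in Ccl7 and once each in Ccl2 and Il15, beside a median of 2 in 10626 tested coding genes. Per kb of 3′ UTR, Cxcl1 (11.8) was highest and Cxcl12 (0.771) lowest, with a median of 1.36 over the tested genes. The nonamer TTATTTATT, bound by the decay factors of the Zfp36 family, was in Cxcl1 and Lif, 2 times each, and in 8.59% of tested coding genes. The first copy of each is shown in capitals.
Cxcl1 (chr5:90892619-90892639, plus strand): atgtatTTATTTATTccacaa
Lif (chr11:4272043-4272063, plus strand): gggcctTTATTTATTatttaa
The Lif copy starts 2715 nt after the coding sequence, inside the distal 3′ UTR peak of 3d DM replicate 1. Of the 2 genes with the nonamer, Lif was called higher in 3d DM. Cxcl1, which had no main test, lay higher in both GM libraries. The part of the nonamer in these levels was not tested.

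All 12 genes of a list of AU-rich decay factors and other mRNA-binding proteins were tested. Of these, 3 were called higher in GM, Pabpc1 among them, and 1 higher in 3d DM, against 9.96% and 7.01% over all tested genes. The list had a median log2 fold change of 0.51. Within the Zfp36 family, Zfp36l2 was at 2290 and 2866 in GM and at 480 and 806 in 3d DM (log2 fold change 2.04, limma adjusted p = 2.49e-05). Zfp36l1 was at 544 and 212 in GM and at 1258 and 1799 in 3d DM (log2 fold change -2.14, limma adjusted p = 1.48e-05). Hnrnpd, also called AUF1, had a log2 fold change of 1.42 (limma adjusted p = 0.00641) and Pabpc1, the poly(A) binding protein, one of 1.75 (limma adjusted p = 0.000187). The call of Hnrnpd was lost with the replicate number as a block (adjusted p = 0.079). The 2 Zfp36 paralogs that were called thus changed in opposite directions.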

How the data were processed

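The 8 samples were 4 input and 4 m6A-immunoprecipitated libraries. The authors trimmed adaptors and aligned reads to mm10 with HISAT2 2.1.0. The deposited input values, a normalized signal per Entrez gene, are named for edgeR's trimmed mean of M values; the counting tool is not given in the sources used here. The authors called peaks per sample with exomePeak at P of at most 0.05; each deposited line gives a fold enrichment (ratio to input) and a p-value. Symbols came from RefSeq GRCm38.p6 by Entrez identifier (25275 of 27179 rows).

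Here, log2(value + 1) was fitted with limma 3.58.1 (R 4.3.3, intensity trend), after keeping genes at 2 cpm of the column total in at least 2 of 4 libraries. The published filter of 3 libraries was an alternative. The fit was tested on simulated data. Peak lines of a gene that shared at least 1 bp were merged, each list's fold being that of its lowest-p line. Peak starts were moved to 1-based coordinates. Peak folds were compared by exact permutation, and tables were read with pandas 2.3.3. Named genes are the 10 members, their direct receptors, neighbours in their clusters and, per list, called genes, at most 4 in each direction. The cluster neighbours and genes with values in the closing section were chosen after their values were seen. Members and lists were chosen with earlier results of these data known.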

Additional observations from a re-analysis of the deposited data

How the results depend on the processing

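With each choice changed in turn, no called gene among the 10 changed direction. Of 3 genes higher in GM, 0 were called with the filter at 3 libraries or at 4 libraries, since Ccl2, Ccl7 and Cxcl5 were then not tested. Of 2 higher in 3d DM, 1 was called with the filter at 3 libraries, 0 at 4 libraries, and 1 each under median-of-ratios rescaling and trimmed-mean rescaling. With the replicate number as a block, 1 was called (Lif), as Il15 had an adjusted p of 0.072; numbers share no stated batch, deviations of same-numbered libraries correlated at 0.29 over 11406 genes, and calls over all genes went from 1136 and 800 to 705 and 593. Leaving out 1 input library gave 0 to 3 called higher in GM and 0 to 2 higher in 3d DM, and over all genes 44 to 573 and 101 to 679; the lone library is then assumed to vary like the others. Of 13 called receptor, cytokine and pathway genes, 7, 8, 13 and 9 lost their call without GM replicate 1, GM replicate 2, 3d DM replicate 1 and 3d DM replicate 2. Of those 13, 2 (Stat3, Hnrnpd) lost it with the block, 3 (Il2rg, Il1b, Socs1) were not tested at 3 or 4 libraries, and 1 (Socs1) lost it under each rescaling. Over all genes, calls higher in 3d DM were 524 and 422 at 3 and 4 libraries and 1369 and 1349 under the rescalings. Leaving out 1 peak list gave 1 to 2 genes with a peak in every list, 0 to 1 in GM lists only and 0 to 1 in 3d DM lists only. Counting by shared position gave 1 gene (Lif) in both 3d DM lists only, at 1 bp or 50% reciprocal overlap. The log2 difference at the Csf1 3′ UTR peak ranged from 0.27 to 0.43 and at the coding peak from -0.061 to 0.63 when 1 list was left out. Depth limits Il6, Cxcl10 and, in GM, Il15, which rest on a few reads.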

Other observations

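A few further ligand genes, chosen after their values were seen, were highest in GM replicate 1. Cxcl13, a B cell attractant, was at 27.7 in GM replicate 1 and 1.02 in GM replicate 2, against 4.61 and 1.20 in 3d DM. Il1rn, the antagonist of the interleukin-1 receptor, was at 29.7 and 7.05 in GM and at 7.43 and 6.46 in 3d DM, and Tslp at 59.2 and 18.1 in GM against 20.0 and 17.4 in 3d DM. Flt3l, a growth factor of dendritic cells, was at 48.5 and 24.1 in GM and at 6.92 and 16.6 in 3d DM. None of these reached the filter in 2 libraries, and none was tested. GM replicate 1 also held more myotube transcript than GM replicate 2; the part of that difference in these values was not tested.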
